A study of Mus musculus with 92 samples.

Results

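Polyamine metabolism was followed through 9 genes in the quadriceps muscle of 92 mice: Odc1, Amd1, Srm, Sms, Smox, Sat1, Oaz1, Oaz2 and Azin1. They were chosen by name, and all 9 of the 9 were among the 13441 genes of the expression table. The animals were DOz mice, outbred, so that alleles differ from mouse to mouse. They ate chow, were about 18 to 20 weeks old, and form 1 group in the labels, which give no other treatment, no genotype and no sex. The Y-linked gene Ddx3y lay between 4.58 and 6.79 log2 units in all 92. RNA was taken from whole muscle, and polyadenylated RNA was sequenced from 500 ng of RNA per animal. Each animal gave 1 library, so the spread between libraries holds the differences between animals together with technical error. The muscle genes Acta1 at 14.60 ± 0.17, Ckm at 13.83 ± 0.17 and Myh4 at 15.90 ± 0.24 log2 units (SD, n = 92) were high in every animal. In whole muscle, fewer cells of a type and less RNA per cell cannot be told apart.

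Polyamines are small positively charged molecules that bind nucleic acids and are needed for growth and protein synthesis. Odc1, ornithine decarboxylase, makes putrescine. Amd1, adenosylmethionine decarboxylase, makes the aminopropyl donor with which Srm (spermidine synthase) turns putrescine into spermidine and Sms (spermine synthase) turns spermidine into spermine. Smox, spermine oxidase, turns spermine back into spermidine and releases hydrogen peroxide, and Sat1 acetylates spermidine and spermine for oxidation or export. Oaz1 and Oaz2 are antizymes, which bind ornithine decarboxylase, inhibit it and send it to the proteasome, while the antizyme inhibitor Azin1 binds antizyme in its place. In skeletal muscle, Smox is known as a gene whose loss goes with atrophy.

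Smox had its closest relations among the members with Amd1 and Odc1, which rose with it, and Oaz2, which fell, and the 250 bases before the RefSeq starts of these 4 genes are shown so that their promoters can be compared. Sequences are from RefSeq, build GRCm38.p6, 5′ to 3′ on the strand of the gene. Capitals mark a GC box (GGGCGG or its complement CCGCCC), the first bases of a cyclic AMP response element (TGACG or CGTCA), or a steroid receptor half-site (AGAACA or TGTTCT).
Smox promoter, chr2:131491612-131491861, plus strand: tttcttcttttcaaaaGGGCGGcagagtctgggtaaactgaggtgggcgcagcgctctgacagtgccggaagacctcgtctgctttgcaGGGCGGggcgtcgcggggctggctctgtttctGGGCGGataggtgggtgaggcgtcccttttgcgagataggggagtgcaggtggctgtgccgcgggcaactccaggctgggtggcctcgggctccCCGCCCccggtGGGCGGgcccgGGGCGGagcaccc
Amd1 promoter, chr10:40302189-40302438, minus strand: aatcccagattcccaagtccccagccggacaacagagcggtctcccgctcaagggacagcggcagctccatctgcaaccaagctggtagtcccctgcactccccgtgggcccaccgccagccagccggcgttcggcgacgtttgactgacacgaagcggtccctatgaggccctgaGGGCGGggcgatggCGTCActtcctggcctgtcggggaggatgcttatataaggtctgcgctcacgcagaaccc
Odc1 promoter, chr12:17544623-17544872, plus strand: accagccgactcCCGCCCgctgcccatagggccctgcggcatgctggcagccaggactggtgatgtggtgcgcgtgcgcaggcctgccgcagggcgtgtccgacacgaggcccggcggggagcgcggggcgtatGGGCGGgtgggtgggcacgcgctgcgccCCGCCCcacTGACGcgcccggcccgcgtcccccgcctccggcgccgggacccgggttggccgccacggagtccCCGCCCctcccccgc
Oaz2 promoter, chr9:65676298-65676547, plus strand: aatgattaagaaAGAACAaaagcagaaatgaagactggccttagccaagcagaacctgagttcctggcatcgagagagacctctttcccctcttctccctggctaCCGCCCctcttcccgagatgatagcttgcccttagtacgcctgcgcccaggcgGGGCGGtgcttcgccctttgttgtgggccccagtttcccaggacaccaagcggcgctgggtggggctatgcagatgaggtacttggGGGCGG

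All 4 windows held a GC box, a sequence found in 32.7% of all 32851 RefSeq windows of this length. Smox had 6 of them, Odc1 had 4, Oaz2 had 3 and Amd1 had 1. The GC content was 80% for Odc1, 68% for Smox, 64.4% for Amd1 and 58% for Oaz2, against a median of 52.4% over all windows. TGACG lay once in the Amd1 window and once in the Odc1 window, in neither of the other two, and in 17.8% of all windows. AGAACA lay once in the Oaz2 window and in 16.1% of all windows. None of the 4 held CACGTG (6.02% of windows), the full TGACGTCA (1.55%), TATAAA (12.4%) or a MEF2 motif (3.2%), all searched on both strands. The Smox and Oaz2 windows, and part of the Odc1 window, lie inside the outer bounds that GENCODE M21 gives these genes, which have other starts upstream. Windows were also found for Sms, Sat1 and Oaz1, and not for Srm and Azin1. These matches describe letters only, and no data here bear on factor binding.

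1 animal stood apart from the rest in several members and is named before the results. Animal 84 had the lowest Smox (4.48), the lowest Amd1 (7.94, with the next animal at 9.36) and the highest Sat1 (5.43) of the 92. It also had the highest value of Myog (5.11) and Chrna1 (5.98), genes that rise when muscle loses its nerve, and the highest Cdkn1a (6.19) and Grb10 (6.84). Its Oaz1 (7.97), Srm (2.33) and Azin1 (5.65) were inside the range of the others, and so were the atrophy ligases Fbxo32 (9.39) and Trim63 (8.02). Values without animal 84 are given beside the results that rest on it. Sample titles end in numbers that form 5 runs of 33, 14, 21, 11 and 13 animals, with gaps above 30 between runs. Their meaning is not given, so the runs were treated as a possible batch. In limma's F test 0.0149% of all genes differed between the runs (2 of 13441), and none of the 9 members was among them. The smallest adjusted p of a member in that test was 0.573, for Azin1, whose unadjusted p was 0.0358.

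Smox varied more between animals than almost any gene of its level. Its values, on a log2 scale close to CPM, ran from 4.48 through a median of 7.68 to 9.31, with a mean of 7.58 ± 0.88 (SD, n = 92). The animals with the lowest and the highest Smox differed 28.5-fold, and 17.1-fold without animal 84, the next lowest being at 5.22. A smooth curve through the SD of all genes gave 0.21 at this level, and the excess of Smox over that curve was at the 99.3 percentile of all genes. The middle 50% of animals lay between 7.06 and 8.24, so the wide range was not made by animal 84 alone. The gene lies on chr2:131491496-131525922, plus strand (GENCODE M21, GRCm38), and shares none of its 31-base stretches with another annotated gene.

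The genes of synthesis differed in both level and spread. Amd1 had the highest level, from 7.94 through a median of 10.60 to 11.33 (10.48 ± 0.55, SD, n = 92). Apart from animal 84, every animal had at least 9.36. Odc1 ran from 5.63 through 7.33 to 8.39 (7.27 ± 0.56), and Sms from 6.57 through 7.84 to 8.68 (7.76 ± 0.52). These 3 genes also spread more than others at their level, with percentiles of excess spread of 96.9 for Amd1, 97.3 for Odc1 and 96.6 for Sms. Srm was by far the lowest member, from 1.41 through 2.16 to 2.84 (2.12 ± 0.31). Its spread was at the 25.2 percentile, so the 2 synthases of the pathway lay far apart in level as well as in variation.

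Sat1, the acetylating enzyme, ran from 3.55 through 4.07 to 5.43 (4.13 ± 0.37, SD, n = 92), and its highest 2 animals, at 5.43 and 5.41, stood together. The antizymes had the narrowest ranges of the 9 members. Oaz1 ran from 7.37 through 7.86 to 8.37 (7.86 ± 0.20) and Oaz2 from 6.84 through 7.20 to 7.90 (7.21 ± 0.20), about the spread of other genes at that level (percentiles 43 and 44.5). Azin1, the inhibitor of the antizymes, ran from 4.12 through 5.46 to 6.35 (5.43 ± 0.41), at the 92.4 percentile. The median SD over all genes was 0.32.

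**Figure D1:**
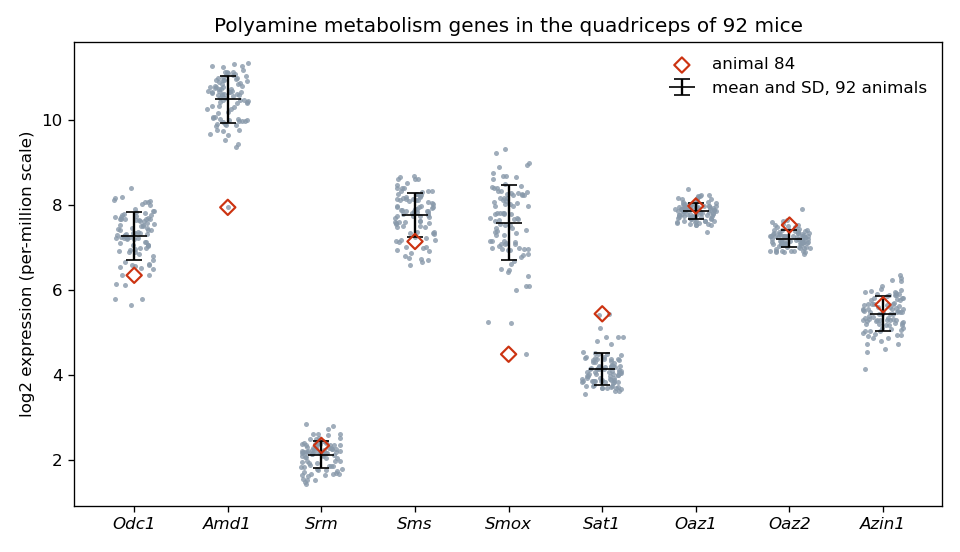
Level of each member in the 92 animals, in log2 units on the per-million scale (1 point per animal, bar for the mean, whiskers for the SD, red diamond for animal 84). Smox had the widest range, from 4.48 to 9.31, and Oaz1 and Oaz2 the narrowest, each with an SD of 0.20.

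Levels between genes were compared after dividing by the merged exon length, since long transcripts can give more reads. On this scale of log2 per kilobase the order of mean levels was Amd1 at 8.66, Oaz1 at 6.50, Oaz2 at 5.63, Smox at 5.62, Odc1 at 5.50, Sms at 5.17, Azin1 at 2.79, Sat1 at 2.65 and Srm at 1.44. Amd1 was above Oaz1 in 91 of 92 animals, and Oaz1 above Oaz2 in all 92. Oaz2 was above Smox in 42 of 92 animals, Smox above Odc1 in 60, Odc1 above Sms in 66 and Azin1 above Sat1 in 62. For these last 4 steps the mean difference was smaller than the SD of the difference between animals, so the order of neighbours there changed from animal to animal. Whether their mean levels differ was not tested. The steps from Sms to Azin1 and from Sat1 to Srm held in all 92 animals. Whether the deposited values had already been divided by length is not stated.

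The level of some members may include reads from near-identical copies. Of the 31-base stretches of Amd1, 82.8% also occur in other annotated genes, and 81.9% in Amd2 alone, a copy on the same chromosome at chr10:35708675-35711892. Amd2 ran from 2.10 through 5.87 to 9.35 (5.93 ± 1.41, SD, n = 92), so its share of the pair differed widely between animals. Odc1 shares 31.3% of its stretches, Oaz1 24%, Sms 18.8%, Oaz2 12%, Srm 9.41% and Sat1 6.92%. Azin1 shares 0.0942%. For Amd1 the count of genes that passed, the pairs with other members and the genes named beside it were fitted again with the linear values of Amd1 and Amd2 added together, and all 15 named genes passed there too (limma).

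The members did not vary as 1 block. Of the 36 pairs, 7 passed an adjusted p of 0.05 in the 2 genome-wide fits that hold the pair, 4 with a positive slope and 3 with a negative one. In 9 pairs at least 1 of the 2 fits passed, and 16 pairs had an unadjusted permutation p under 0.05. Of all genes, the share that passed in the fit on a member ran from 0.0298% for Srm to 17.9% for Oaz1. At an unadjusted p under 0.05 (limma), 20.1% of all genes were found with Smox. These fits use limma with Benjamini-Hochberg adjustment over all 13440 other genes, with the slope in log2 units per SD of the predicting gene. The correlations below are over 92 animals, with two-sided p-values from 100000 permutations, of which 1e-05 is the smallest possible. The median absolute r of the 36 pairs was 0.135.

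Smox and Amd1 were the closest pair. Pearson's r was 0.793 (95% interval 0.703 to 0.859, permutation p = 1e-05) and Spearman's rho 0.743 (permutation p = 1e-05). Amd1 rose by 0.44 ± 0.03 (SE) for each SD of Smox (limma, adjusted p = 1.12e-17). Of the 13440 other genes, Amd1 had the largest absolute r with Smox, while Smox was the second for Amd1. Leaving out the 2 animals at the extremes of Smox (those most distant from its median) gave r = 0.738, leaving out animal 84 gave 0.755, and r lay between 0.61 and 0.882 within the 5 runs. With Amd1 and Amd2 added together the slope was 0.43 (larger adjusted p of the 2 fits, limma, 3.99e-17).

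Odc1 rose with Smox as well, with r = 0.586 (0.433 to 0.706, permutation p = 1e-05) and rho = 0.583 (permutation p = 1e-05). The slope was 0.33 ± 0.05 (limma, adjusted p = 2.81e-07), and Smox was the gene with the largest absolute r for Odc1. Without the 2 farthest animals r was 0.576. Within the runs r was 0.707, 0.554, 0.733, 0.0571 and 0.291, so in the fourth run, with 11 animals, hardly any relation was seen. Odc1 and Amd1 had r = 0.481 (rho = 0.484, both permutation p = 1e-05, r = 0.483 without the 2 extreme animals), and within the fourth run r was -0.096.

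Oaz2 fell as Smox rose. The r was -0.643 (-0.749 to -0.504, permutation p = 1e-05), rho was -0.593 (permutation p = 1e-05), and the slope was -0.13 ± 0.02 (limma, adjusted p = 1.15e-08). It held in all 5 runs, with r between -0.78 and -0.346, and was -0.587 without the 2 extreme animals and -0.634 without animal 84. Smox had the largest absolute r of all genes with Oaz2, and Oaz2 was the fourth for Smox. An Oaz2 SD of 0.20 means that this antizyme moved within a narrow range while Smox moved over a wide one. Odc1, the target of the antizymes, also had a negative relation with Oaz2 (r = -0.358, permutation p = 0.00044, rho = -0.34 with 0.00093, r = -0.312 without the 2 extreme animals). Its larger adjusted p (limma) was 0.0364, and it did not pass in 3 of 10 alternatives, with adjusted p-values up to 0.295.

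**Figure D2:**
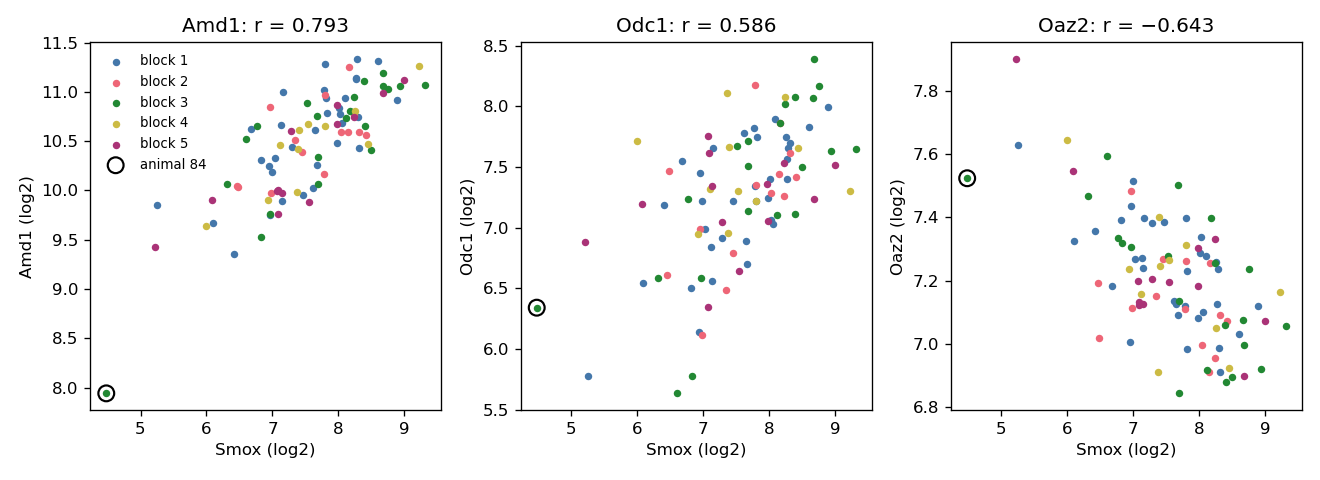
Amd1, Odc1 and Oaz2 against Smox, all in log2 units, 1 point per animal, coloured by the run of title numbers (block) and with animal 84 circled. Amd1 and Odc1 were higher where Smox was higher (r = 0.793 and 0.586) and Oaz2 was lower (r = -0.643).

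The antizyme pair moved together. Oaz1 and Oaz2 had r = 0.454 (0.274 to 0.602, permutation p = 2e-05), rho = 0.461 (permutation p = 1e-05) and r = 0.42 without the 2 extreme animals, positive in all 5 runs. Oaz1 did not follow Oaz2 in its relation with Smox at the same size: Smox and Oaz1 had r = -0.25 (permutation p = 0.0161, rho = -0.22 with 0.0344, r = -0.221 without the 2 extreme animals) and an adjusted p (limma) of 0.134, though with the library number as covariate the pair passed in both fits (larger adjusted p = 0.0435). Whether the 2 antizymes differ in this was not tested. Azin1 was lower where Oaz1 was higher, with r = -0.347 (-0.515 to -0.153, permutation p = 0.00058), rho = -0.283 (permutation p = 0.00624) and r = -0.321 without the 2 extreme animals. It did not pass in limma without those animals (larger adjusted p = 0.0936) or with the first 3 principal components (slope -0.04, 0.778). That relation was positive in the fourth run (r = 0.476) and negative in the other 4 (-0.579 to -0.0693).

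Amd1 and Oaz2 passed in the fit on Amd1 (limma, adjusted p = 0.0202) and not in the fit on Oaz2 (0.0526), with r = -0.335. Without animal 84 it passed in neither (limma, adjusted p = 0.0902 and 0.0966, r = -0.294), while it passed in both with 3 principal components (larger adjusted p = 0.0216), with marker scores (0.0385) and among genes with a mean of at least 1 (0.0476). Srm, Sms and Sat1 stood outside the pairs that passed in both fits. Sms had positive r with Odc1 (0.338), Amd1 (0.289) and Smox (0.229), and only the first passed, in the fit on Odc1 (limma, adjusted p = 0.0245) and not in the fit on Sms (0.0893). Sat1 and Smox had r = -0.0468 (-0.249 to 0.16), and 0.105 without animal 84, so no relation of the 2 catabolic enzymes was found. Sat1 and Amd1 had r = -0.258 with all animals and -0.0961 without animal 84, which combined the lowest Amd1 with the highest Sat1. No pair with Srm passed in either fit, and its largest absolute r was with Amd1 (-0.229, -0.415 to -0.0257).

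**Figure D3:**
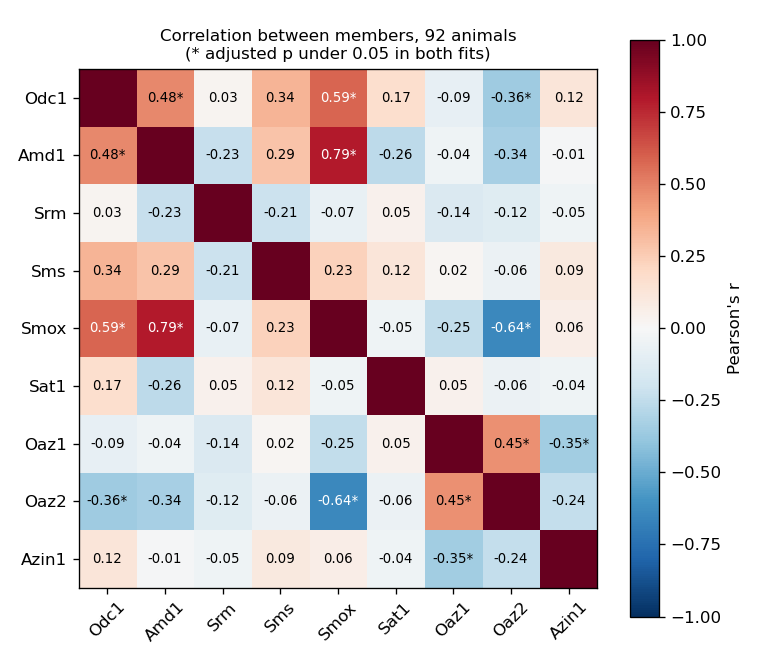
Pearson's r for each pair of members over 92 animals, from blue (negative) to red (positive), with an asterisk where the adjusted p was under 0.05 in both fits. The 7 pairs marked join Smox, Amd1, Odc1 and Oaz2, and Oaz1 with Oaz2 and Azin1.

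Because Smox and Amd1 vary together, each gene was also fitted on both at once, a model chosen after the pairs had been seen. In it 4.2% of all genes had slopes on Smox and Amd1 that differed (565 of 13439, limma, adjusted p under 0.05, and 318 without animal 84). Oaz2 was among them: at equal Amd1 it fell by 0.20 ± 0.02 per SD of Smox (limma, adjusted p = 2.45e-08), and at equal Smox it rose by 0.09 ± 0.02 per SD of Amd1 (limma, adjusted p = 0.0129). The difference of the 2 slopes was -0.30 ± 0.05 (limma, adjusted p = 4.81e-05), and -0.27 ± 0.04 without animal 84 (4.08e-05). Oaz1 also had slopes that differed, -0.11 on Smox and 0.08 on Amd1 (limma, adjusted p of the difference 0.0425). So did Sat1, with 0.16 on Smox and -0.22 on Amd1 (0.0356). For Oaz1 the difference was -0.20 ± 0.06, and without animal 84 nearly the same, -0.19 ± 0.06 (limma, adjusted p = 0.0515). For Sat1 it was 0.38 ± 0.11, and 0.29 ± 0.10 without animal 84 (0.104). Odc1 had a slope of 0.31 ± 0.08 on Smox (limma, adjusted p = 0.0127) and of 0.03 ± 0.08 on Amd1 (0.904), but the difference itself did not pass (0.28).

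Over the whole table, 6.24% of genes varied with Smox (838 of 13440, limma, adjusted p under 0.05), 544 rising and 294 falling with it. Of the 8 other members, 3 were among them: Amd1 and Odc1 rose and Oaz2 fell. The genes with the highest r after Amd1 were Mettl21c, a lysine methyltransferase of muscle (r = 0.665), Ripor2 (0.657), and the kinesin Kif3c (0.642). Next came Gm56936 (0.638), the kinase Prkcd (0.625), the zinc transporter Slc30a2 (0.617), the phosphoglucomutase Pgm1 (0.616), Gadl1, an enzyme of beta-alanine synthesis (0.615), and Cdk19, a kinase of the Mediator complex (0.603). Mettl21c had a mean of 5.61 ± 0.78 (SD, n = 92), with a median of 5.73 and a highest value of 7.11, and rose by 0.52 ± 0.06 per SD of Smox (limma, adjusted p = 1.07e-09). All of these r were positive in each of the 5 runs, though the genes were chosen by r over the same animals.

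The genes that fell with Smox were led by Oaz2 and by Grb10, an adaptor that restrains insulin and IGF-1 signalling (r = -0.597, rho = -0.558, both permutation p = 1e-05). Grb10 ran from 4.15 through 5.05 to 6.84, the highest being animal 84, and r was -0.521 without that animal. The others were Ice1, a part of the little elongation complex (-0.554), the protease cathepsin L, Ctsl (-0.547), Fgf11 (-0.54), Tceal7 (-0.519), Kctd5 (-0.515), Zfp503 (-0.506), the mitochondrial calcium uniporter Mcu (-0.503) and the proteoglycan Sdc2 (-0.495). All passed in limma, the largest adjusted p among the 10 being 8.82e-05, for Mcu. Tceal7 had the opposite sign in the fourth run (0.124), and the other 9 kept theirs in all 5. These genes too were chosen by r over the same animals.

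Beyond the 9 members, 16 of 23 listed polyamine genes were in the table and 1 of them rose with Smox, a share near the 6.24% of all genes. It was Amd2, the copy of Amd1 (r = 0.311, permutation p = 0.0027, rho = 0.304, permutation p = 0.00358, limma adjusted p = 0.0378). Its r was 0.273 without the 2 extreme animals, 0.23 without animal 84 and -0.114 in the fifth run, and without animal 84 it did not pass (limma, adjusted p = 0.195), while Eif5a2 did. Nor did Amd2 pass with the first 3 principal components (limma, adjusted p = 0.0902), without the 2 extreme animals (0.106) or with normal scores of Smox (0.0562). The other 15 did not pass in limma. Among them Paox, the oxidase of acetylated polyamines, had a slope of -0.07 ± 0.04 (adjusted p = 0.345) and the acetyltransferase Sat2 one of 0.03 ± 0.04 (0.752). Oat, which makes ornithine or uses it, had -0.02 ± 0.02 (0.704). The antizyme inhibitor Azin2 had -0.02 ± 0.05 (0.876). The translation factor Eif5a, which carries hypusine made from spermidine, had 0.01 ± 0.01 (0.668) and its relative Eif5a2 0.12 ± 0.05 (0.108). The hypusination enzymes Dhps and Dohh had 0.03 ± 0.03 (0.645) and 0.02 ± 0.02 (0.618). The transporters Atp13a2 (-0.01 ± 0.03, 0.882), Atp13a3 (-0.01 ± 0.04, 0.891), Slc18b1 (-0.03 ± 0.06, 0.806) and Slc3a2 (0.01 ± 0.03, 0.853) had slopes smaller than their SE, as did the dehydrogenases Aldh4a1 (-0.01 ± 0.02, 0.835) and Aldh9a1 (0.04 ± 0.07, 0.802). The transporter Slc22a3 had 0.12 ± 0.07 (0.321). The median slope of the 16 was 0.01, against -0.00191 over all genes.

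In the methionine cycle and methylthioadenosine salvage, 2 of 13 genes in the table rose with Smox and none fell (median slope 0.02), where 6.24% of all genes passed. Adi1, acireductone dioxygenase, works in the salvage of methylthioadenosine, the by-product of spermidine and spermine synthesis. It had r = 0.517 (permutation p = 1e-05, rho = 0.434, permutation p = 5e-05) and 0.429 without animal 84, and in the fifth run r was 0.0248. With Amd1, Adi1 had r = 0.605. In the model with both, its slope was 0.03 on Smox (limma, adjusted p = 0.756) and 0.17 on Amd1 (0.0107, and 0.0812 without animal 84), and the difference did not pass (0.377). Mtr, methionine synthase, had r = 0.36 with Smox (permutation p = 0.00045, rho = 0.413, permutation p = 5e-05). Mat2a, the synthetase that makes adenosylmethionine in muscle, had r = 0.211 and did not pass (limma, adjusted p = 0.229).

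Among 21 genes of muscle growth and atrophy, 2 rose and 3 fell with Smox (median slope -0.02), beside 6.24% of all genes. Those that rose were the growth inhibitor myostatin, Mstn (r = 0.441), and the growth factor Igf1 (0.386). Those that fell were the transcription factor Foxo3 (-0.419), the stress gene Sesn1 (-0.417) and the receptor Igf1r (-0.4). Mstn had r = 0.328 without animal 84 and -0.0315 in the second run.

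The other lists held at most 2 genes each that passed with Smox, beside 6.24% of all genes. Genes of denervation and the synapse gave 1 of 13 rising, Musk, the receptor kinase of the neuromuscular junction (r = 0.391), and 1 falling, Myog (-0.365). Without animal 84, Myog, Gpd1 and Lpin1 did not pass in limma (adjusted p = 0.188, 0.102 and 0.0853). Of 11 genes of fast glycolytic fibres, 2 rose, Pfkm (0.46) and Gpd1 (0.357), while 0 of 10 slow-fibre genes and 0 of 2 fast oxidative genes passed in limma. At an unadjusted p under 0.05, 4 of the slow-fibre genes and 0 of the fast oxidative ones were found, where 20.1% of all genes were, and all 10 slow-fibre slopes were negative, with a median of -0.27. Of 15 clock genes Per3 fell (-0.353), and of 10 glucocorticoid targets and metallothioneins Lpin1 rose (0.377). Few markers of other cells of the tissue passed with Smox. None of 7 macrophage, 8 endothelial, 8 fibroblast, 8 Schwann cell and 5 blood markers did in limma. At an unadjusted p under 0.05, 3 of the 8 fibroblast markers were found, and no macrophage, endothelial, Schwann cell or blood marker. The slopes of all 8 fibroblast markers were negative, with a median of -0.08. Of 10 adipocyte markers Lep fell (-0.326), and of 7 satellite cell markers Pax7 fell (-0.4, adjusted p = 0.0501 in limma without the 2 extreme animals), with the part of these cells in the results not tested.

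**Figure D4:**
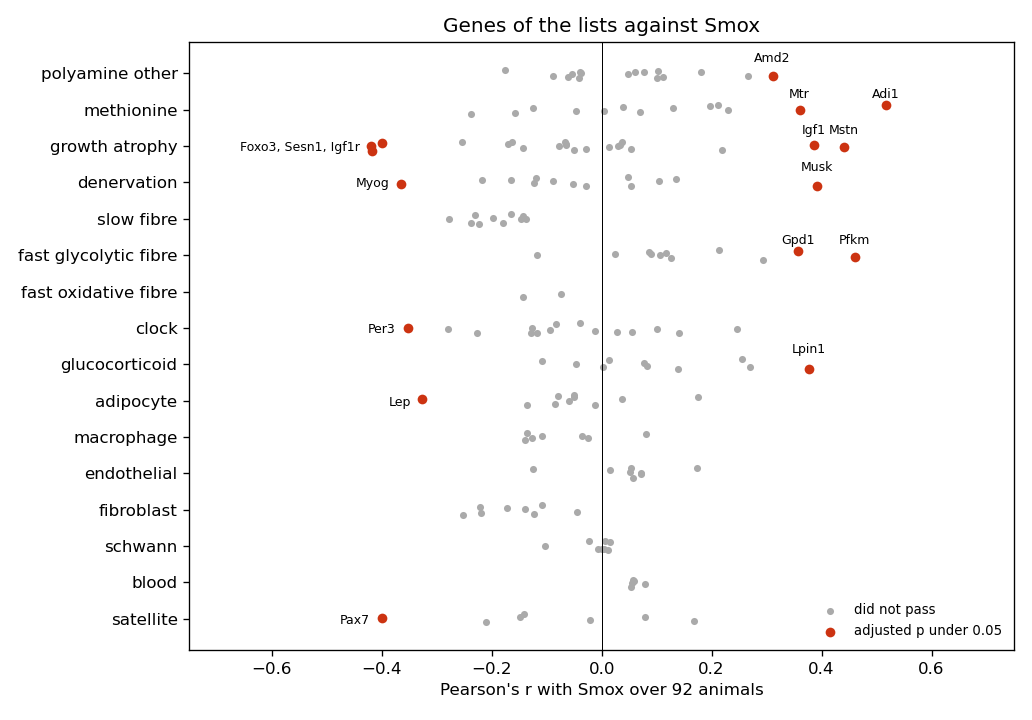
Pearson's r with Smox over 92 animals for each gene of 16 lists, with genes that passed in limma in red and named. Adi1 had the highest r of the listed genes other than the members (0.517), and the markers of macrophages, endothelial cells, fibroblasts, Schwann cells and blood held no gene that passed.

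Cers1 and Cers2, ceramide synthases, were set beside Smox. Cers1, the form of muscle fibres, rose with it (r = 0.399, permutation p = 0.00011, rho = 0.414 with 7e-05, r = 0.345 without the 2 extreme animals, limma adjusted p = 0.00397). Cers2 had r = -0.234 and did not pass (limma, adjusted p = 0.171).

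For Amd1, 8.3% of all genes passed (1115 of 13440, limma), 721 rising and 394 falling. That count rests in part on 1 animal, since without animal 84 it was 491. The genes with the largest absolute r were Cdk19 (0.825), Smox and Kif3c (0.774). Of 10 slow-fibre genes 4 fell with Amd1, among them Csrp3 (r = -0.424) and Tnni1 (-0.383), and the same number fell without animal 84. Tnni1 did not pass without the 2 extreme animals (limma, adjusted p = 0.0979). The alternative with marker scores says nothing of these genes, since its slow-fibre score is built from them. Of 11 fast glycolytic genes 6 rose, among them Pygm (0.412) and Myh4 (0.32), and without animal 84 none passed (limma, adjusted p = 0.271 and 0.581 for these). Of 21 growth and atrophy genes 1 rose, myostatin (0.639), and 5 fell, among them Foxo3 (-0.467) and Sesn1 (-0.468). Without animal 84 there were 1 and 3. In the model with Smox and Amd1 together, Mstn followed Amd1 (slope 0.35 ± 0.06, limma, adjusted p = 3.36e-05) and not Smox (-0.08 ± 0.06, 0.507), and the slopes differed (0.0148, and 0.048 without animal 84). Of 13 denervation genes 1 rose, Musk (0.348), and 5 fell, among them Myog (-0.485) and Chrna1 (-0.355). Without animal 84 Musk rose and Myog alone fell, and without the 2 extreme animals Myog did not pass (limma, adjusted p = 0.0939). The macrophage markers Cd68 (-0.344) and Lyz2 (-0.333) fell with Amd1 and did not pass without animal 84 (limma, adjusted p = 0.342 and 0.611).

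For Odc1, 5.51% of genes passed (741 of 13440, limma), 377 rising and 364 falling. After each animal was centred on its median, 557 rose and 343 fell. The largest absolute r after Smox belonged to Asb5, a gene of muscle (0.573), and Kcnf1, a potassium channel subunit (0.57). Musk rose with Odc1 (r = 0.563, limma, adjusted p = 9.33e-06). Of 10 glucocorticoid targets and metallothioneins 5 rose, Pdk4 (0.368), Zbtb16 (0.359), Cebpd (0.352), Fkbp5 (0.33) and Lpin1 (0.384), and 8 of 10 rose without animal 84. Lpin1 also lies within 1 Mb of Odc1 and is counted again among its neighbours below. Of 21 growth and atrophy genes 4 rose, Foxo1, Mstn and the atrophy ligases Fbxo32 (0.483) and Trim63 (0.422), and none fell. Foxo1 did not pass with the title-number run as covariate (limma, adjusted p = 0.0749). With marker scores as covariates Trim63, Foxo1, Fkbp5 and Cebpd did not pass (limma, adjusted p = 0.13, 0.238, 0.21 and 0.486). With the first 3 principal components of the table as covariates none of these 9 list genes passed (limma, adjusted p from 0.135 for Mstn to 0.97 for Foxo1), while Musk did.

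Sat1 varied with metallothioneins and with markers of other cell types. Here 8.9% of genes passed (1196 of 13440, limma), 605 rising and 591 falling. Its closest genes were the metallothioneins Mt1 (r = 0.684) and Mt2 (0.668) and the macrophage lectin Lgals3 (0.684). Mt2 ran from -1.50 through 0.98 to 6.18, and Mt1 from 0.10 through 1.77 to 5.92. Of 10 glucocorticoid targets and metallothioneins 6 rose with Sat1, with and without animal 84. Of 7 macrophage markers 5 rose, led by Lyz2 (0.515) and Cd68 (0.425), which were also the 2 that rose without animal 84. Neither passed without the 2 animals farthest from the median of Sat1 (limma, adjusted p = 0.0724 and 0.144). Of 8 endothelial markers 6 fell, led by Kdr (-0.468), and 4 fell without animal 84. Kdr did not pass without the 2 farthest animals (limma, adjusted p = 0.174). Of 8 Schwann cell markers 5 fell, and none passed without animal 84. Of 21 growth and atrophy genes 9 rose, and 6 without animal 84, among them Cdkn1a (0.475), Myc (0.429) and Trim63 (0.427). In this list 1 gene fell, Foxo4 (-0.368), and it did not pass without animal 84 (limma, adjusted p = 0.133). Without animal 84, 525 genes passed in place of 1196. With scores of the cell type and slow-fibre markers as covariates 59 genes passed, and Mt1, Mt2 and Lgals3 were among them (limma, adjusted p = 0.00112, 0.00536 and 0.00561). With the first 3 principal components 3 genes passed, and these were not among them (0.666, 0.802 and 0.542). Cdkn1a, Myc and Trim63 did not pass with marker scores (limma, adjusted p = 0.0731, 0.213 and 0.106) or with principal components (0.791, 0.987 and 0.802). Lyz2, Cd68 and Kdr, which are themselves in the marker scores, did not pass with principal components (0.828, 0.945 and 0.952). The part of these cells in the Sat1 results was not tested further.

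The antizyme Oaz1 and the antizyme inhibitor Azin1 covaried with a larger share of the table than the other 7 members did when no covariate was used. For Oaz1, 17.9% of genes passed (2410 of 13440, limma), led by Elob, a subunit of elongin (0.676), Pde4dip (0.62) and the phosphatase subunit Ppp2r1a (0.618). For Azin1, 17.1% passed (2295 of 13440), led by Gxylt1 (0.631), Rnf19a (0.626) and Trak2 (0.619). Gxylt1 and Rnf19a lie on chromosome 15 as Azin1 does, with starts 54756 and 2236 kb from its own. The 2 members had opposite relations with fast glycolytic genes: 7 of 11 rose with Oaz1 (8 without animal 84), and 8 of 11 fell with Azin1. Atp2a1, the calcium pump of fast fibres, had r = 0.553 with Oaz1 and -0.571 with Azin1. Eif5a rose with Oaz1 (0.534), and the polyamine transporter Atp13a3 fell with it (-0.364) and rose with Azin1 (0.495). With the first 3 principal components of the table as covariates, 50 genes passed for Oaz1 and 671 for Azin1, so the order turned: Smox then had 929 and Amd1 825. In that fit Ppp2r1a, Eif5a and Atp2a1 did not pass with Oaz1 (limma, adjusted p = 0.122, 0.0965 and 0.334), and neither did Atp13a3, whose slope was 0.01 (0.922).

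For Oaz2, 1.53% of genes passed (205 of 13440, limma), 129 rising and 76 falling, and 152 and 50 after centring each animal on its median. After Smox the closest genes were the transcription factor Nfix (0.546) and Mfsd4b1 (-0.524). For Sms, 0.246% passed (33 of 13440, 6 without animal 84), led by Smpx (0.558), a small muscle protein, Ttll7 (0.487) and Rab10 (0.464). Musk rose with Sms too (0.451, limma, adjusted p = 0.0117). With marker scores Ttll7, Rab10 and Musk did not pass with Sms (limma, adjusted p = 0.117, 0.513 and 0.117), nor with principal components (0.0708, 0.56 and 0.123). For Srm, 0.0298% passed (4 of 13440, 3 rising and 1 falling, and 2 rising and 0 falling after centring). The 3 named were the translation helicase Eif4a1 (0.469), Tpm4 (0.467) and Ccl11 (0.444). None of these 3 passed with principal components (limma, adjusted p = 0.139 for each) or marker scores (0.143 to 0.168), and Tpm4 and Ccl11 did not pass with the title-number run as covariate (0.0846 and 0.108).

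Some members covaried with a gene near them on the chromosome. Within 1 Mb of the 9 starts there were 219 genes of the table, and 39 of them passed in the fit on their member, 27 of these beside Oaz1. The count was 4 of 15 for Amd1 (8.3% of all genes passed), 2 of 11 for Odc1 (5.51%), 1 of 5 for Sms (0.246%) and 1 of 2 for Sat1 (8.9%). For Smox it was 2 of 26, or 7.69%, near the 6.24% of all genes, and for Azin1 2 of 8, against 17.1%. Cdk19 starts 37.4 kb upstream of Amd1 on chromosome 10 and had the largest absolute r of all genes with Amd1 (0.825, 0.746 to 0.881, rho = 0.835, both permutation p = 1e-05). Without the 2 farthest animals r was 0.805, and it lay between 0.758 and 0.893 within the runs. Cdk19 ran from 4.42 through 5.57 to 6.33, animal 84 being the lowest. At equal Amd1, Cdk19 had a slope of -0.05 ± 0.04 on Smox (limma, adjusted p = 0.476), and at equal Smox it had 0.37 ± 0.04 on Amd1 (1.41e-11), with a difference of -0.43 ± 0.07 (8.71e-05).

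Smpx, 207 kb upstream of Sms on the X chromosome, was the closest gene to Sms of all (r = 0.558, rho = 0.612, both permutation p = 1e-05, r = 0.574 without the 2 extreme animals). The other 4 genes near Sms did not pass. Kcnf1, 368 kb upstream of Odc1 on chromosome 12, was the third for Odc1 (r = 0.57, rho = 0.604, both permutation p = 1e-05, r = 0.566 without the 2 extreme animals), with r = -0.00811 in the second run. Kcnf1 ran from -0.73 through 2.31 to 5.10, a wider spread than Odc1 itself, but at a lower level, where genes spread more. The smooth curve through the SD of all genes gave 0.40 at the level of Srm (2.12) and 0.21 at that of Odc1. Acot9, 46 kb upstream of Sat1, had r = 0.485 (rho = 0.294, r = 0.31 without the 2 extreme animals). It did not pass without those animals (limma, adjusted p = 0.0918), with marker scores (0.224) or with principal components (0.992). Cenpb, 311 kb from Smox, had r = 0.462 (rho = 0.42). Near Oaz1, in a dense region, 27 of 92 genes passed, or 29.3%, where 17.9% of all genes did. None of 33 genes near Srm and none of 27 near Oaz2 passed in limma. Inherited variants were not analysed here, and their part in these relations was not tested.

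**Figure D5:**
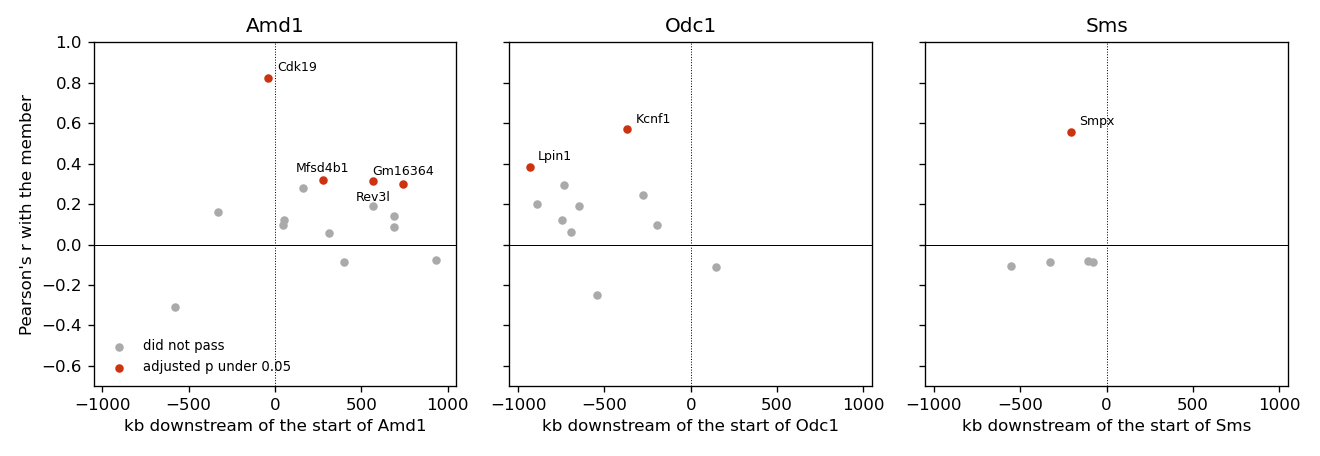
Pearson's r with the member against distance in kb from its start (positive is downstream) for genes within 1 Mb of Amd1, Odc1 and Sms, with those that passed in limma in red and named. Cdk19 (0.825), Kcnf1 (0.57) and Smpx (0.558) stand above the other neighbours.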

How the data were processed

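RNA from the quadriceps of 92 DOz mice was sequenced. The authors deposited 1 table of log2 values, which on the linear scale sum to between 898071 and 1140761 per animal, close to per-million values. The submitters' processing notes name bcl2fastq, MultiQC, kallisto 0.50.1, edgeR and the build mm10, with no role given, and the exact scaling, any scaling by length and the strand setting are not given in the sources used here. Read depth is unknown, so no counting error could be given.

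Of 13456 lines, 15 repeated ones were removed, leaving 13441 genes. For each member, limma 3.58.1 (R 4.3.3, mean-variance trend) fitted every other gene on the member's value in SD units, and p-values were adjusted by the Benjamini-Hochberg method over all genes, with a threshold of 0.05. Pearson's r has a 95% interval from Fisher's transformation, and p-values for r and rho are from 100000 permutations of the animals. The model was also run on simulated data with known slopes, and the outcome is not given here. Genes named beside Smox are the 10 with the highest and the 10 with the lowest r, and beside another member the 3 with the largest absolute r, with a mean of at least 1 and past the threshold. Genes of the lists that passed with Smox are also named, with every other polyamine gene in the table. Genes of the lists named beside other members, and the neighbouring genes, were chosen after their values were seen. The members and the lists were chosen with earlier results of these data known. Gene positions and exon lengths are from GENCODE M21 (GRCm38) and promoters from RefSeq. Alternatives used the title-number run, the library number, principal components or marker scores as covariates, fewer animals, other scales and fewer genes. 1 gene of the list of muscle growth and atrophy is not reported here. Expression of no other tissue and no genotype was analysed here.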

Additional observations from a re-analysis of the deposited data

How the results depend on the processing

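No pair of members that passed changed direction, and neither did any gene that passed with Smox and is named. Of the 19 genes followed beside Smox that are no members and did not pass, the slope of 7 changed sign under an alternative, and Eif5a2 passed in 2. Of 96 relations of a member with another gene that passed and were followed, 37 did not pass with the first 3 principal components, 24 with marker scores (some being markers in those scores), 18 without the 2 animals farthest from the median, 10 without animal 84, 6 with normal scores, 3 with the title-number run and 1 after centring. Of the 7 pairs of members that passed, 5 passed under every alternative, and the number of pairs stayed within 1.5 times of 7. Oaz1 with Azin1 lost its call in 2 of 10 alternatives (adjusted p up to 0.778 with 3 principal components, limma), and Odc1 with Oaz2 in 3 of 10. Pairs that passed only under an alternative were Amd1 with Oaz2 in 3, Smox with Oaz1 in 1 and Sms with Odc1 in 1. The counts for Smox (838) stayed within 1.5 times under each alternative. With the first 3 principal components as covariates the counts of genes that passed were 4 for Sms, 0 for Srm, 103 for Odc1, 3 for Sat1, 50 for Oaz1, 73 for Oaz2 and 671 for Azin1. With marker scores they were 1 for Sms, 0 for Srm, 257 for Odc1, 531 for Amd1, 59 for Sat1 and 116 for Oaz2. With the title-number run they were 8 for Sms and 2 for Srm. Without the 2 animals farthest from the median they were 9 for Srm, 391 for Amd1, 282 for Sat1 and 851 for Azin1. With normal scores of the predictor they were 712 for Amd1 and 487 for Sat1. After centring they were 124 for Sms and 2 for Srm. Without animal 84, an alternative chosen after seeing the data as was adding Amd1 to Amd2, they were 6 for Sms, 491 for Amd1 and 525 for Sat1. When title numbers were used as 1 continuous scale, 1 gene varied with them in place of 2 between runs. Divided by exon length, mean Smox was 5.62 in place of 7.58. The sign of the slope turned with principal components for Foxo1 on Odc1 (-0.01), for Cd68 (-0.04), Kdr (0.02), Foxo4 (0.03) and Acot9 (-0.00) on Sat1 and for Atp13a3 on Oaz1 (0.01), none of them passing there. With marker scores Tnni1 on Amd1 had 0.03, which says nothing of it, since Tnni1 is itself in the scores. The cause of these changes was not tested. No paired analysis was possible because the labels give 1 group.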
